A study of Homo sapiens with 10 samples.

Results

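Messenger RNA of 8 transcription factors that help to define noradrenergic neuroblastoma cells was followed across 10 RNA sequencing libraries of the human line SH-SY5Y. The 8 genes, PHOX2A, HAND1, HAND2, GATA2, GATA3, ISL1, TBX2 and MYCN, were taken by symbol from a table of 58174 genes. All 8 passed the filter for testing, a mean of at least 1 TPM (a transcript's share of all transcripts in the library, scaled for its length) over the 10 libraries, which left 17118 genes. SH-SY5Y is an established line grown from a neuroblastoma, a childhood tumour of the sympathetic nerve lineage. In the knockdown experiment, cells received either a pooled siRNA (small interfering RNA) aimed at TDP-43 (siTDP-43, 3 libraries) or a control siRNA pool (siControl, 3 libraries). Each pool was used at 50 nM for 96 h, with a second dose at 24 h. In the genotype experiment, genome-edited cells homozygous for TDP-43 N352S (2 libraries) were set beside cells with wild-type TDP-43 (2 libraries). All 10 libraries are of the same parental line, and the genotype libraries are not labelled as having received siRNA. The submitters call the libraries biological replicates but name neither cultures nor edited clones. The p-values therefore rest on library-to-library spread of unknown origin, and genotype cannot be told apart from other differences between the edited cell populations. The study asked how loss of TDP-43, an RNA-binding protein of the nucleus encoded by TARDBP, or its mutation alters gene expression.

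Noradrenergic neuroblastoma cells keep a core regulatory circuit, a small group of transcription factors that bind their own and each other's enhancers and hold the cell in a sympathetic neuron-like state. PHOX2A is a paired-type homeodomain factor of autonomic neurons, HAND1 and HAND2 are basic helix-loop-helix factors that pair with E proteins, and GATA2 and GATA3 are zinc finger factors needed for sympathetic neuron maturation. ISL1 is a LIM homeodomain factor, TBX2 a T-box factor that mostly represses, and MYCN the MYC family member whose gene is amplified in many aggressive neuroblastomas but not in SH-SY5Y. A mesenchymal state with other transcription factors has been described as the alternative identity of these tumours.

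In the GENCODE release 29 annotation (GRCh38), PHOX2A (ENSG00000165462) lies on chromosome 11 at 72239077 to 72245664 and HAND1 (ENSG00000113196) on chromosome 5 at 154474972 to 154478264, both on the minus strand. HAND2 (ENSG00000164107) lies on chromosome 4 at 173524969 to 173530229 and GATA2 (ENSG00000179348) on chromosome 3 at 128479427 to 128493185, also on the minus strand. On the plus strand are GATA3 (ENSG00000107485) on chromosome 10 at 8045378 to 8075203, ISL1 (ENSG00000016082) on chromosome 5 at 51383391 to 51394738, TBX2 (ENSG00000121068) on chromosome 17 at 61399896 to 61409466 and MYCN (ENSG00000134323) on chromosome 2 at 15940564 to 15947007.

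The libraries carried the identity that the gene set stands for, with TH as the exception among its markers. Of 7 noradrenergic markers, all passed the filter. They summed to 3737 to 3792 TPM in siControl and 4316 to 4528 TPM in siTDP-43 libraries. The sums were 3950 to 4042 TPM in wild-type and 3389 to 3585 TPM in N352S libraries. Among them limma called TH and CHGA higher and DDC and RET lower in the knockdown. For N352S cells it called RET higher and DBH, DDC, CHGA and CHGB lower. DBH, which makes noradrenaline from dopamine, lay between 1293 and 1687 TPM, but TH, the first enzyme of the pathway, was listed at only 0.36 to 3.42 TPM, and rose in the knockdown from 1.10 to 2.76 TPM (log2 0.85, limma adjusted p = 0.023). Of the defining markers of other cells, the Schwann cell factor FOXD3 and the T cell gene CD3E were at 0 in every library, and SOX10 stayed at or below a group mean of 0.23 TPM. The 6 Schwann cell markers summed to 4.54 to 11.2 TPM, the 5 leukocyte markers to 0.03 to 2.73 TPM and the 4 epithelial markers to 0.86 to 5.12 TPM. The 7 mesenchymal or fibroblast markers summed to 118.4 to 127.2 TPM in siControl and 144.6 to 156.4 TPM in siTDP-43 libraries. They summed to 90.83 to 109.9 TPM in wild-type and 99.04 to 102.7 TPM in N352S libraries, mostly from LUM, COL3A1, PDGFRA and PDGFRB. Single markers moved in opposite directions under these sums. COL3A1, a fibrillar collagen, rose in the knockdown from 28.67 to 45.05 TPM (log2 0.63, limma adjusted p = 4.9e-04) and fell in N352S cells from 13.24 to 4.62 TPM (-1.34, adjusted p = 2.2e-05). PDGFRA, a growth factor receptor, fell in the knockdown from 32.07 to 22.8 TPM (-0.48, limma adjusted p = 4.9e-04) and rose in N352S cells from 25.01 to 36.4 TPM (0.52, adjusted p = 9.4e-04). Their part in the changes below was not tested. TARDBP, the siRNA target, was at 255.5, 255.6 and 256.3 TPM in siControl and at 62.26, 63.12 and 67.67 TPM in siTDP-43 libraries, and at 195.5 and 205.4 TPM in wild-type and 122.8 and 122.3 TPM in N352S libraries. Replicate libraries correlated at 0.977 to 0.990 across genes. Depth is unknown, since TPM keep none, and in bulk RNA fewer cells in a state and less RNA per cell cannot be told apart.

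RefSeq windows (GRCh38.p14) upstream of the transcription start are shown for the 3 genes whose change differed most between the experiments, HAND1, PHOX2A and MYCN, and for HAND2, the close relative of HAND1. Each is the 250 bases before the start, 5′ to 3′ on the strand of the gene, at chr5:154478228-154478477 (minus strand) for HAND1, chr4:173530230-173530479 (minus) for HAND2, chr11:72244177-72244426 (minus) for PHOX2A and chr2:15940300-15940549 (plus) for MYCN. The RefSeq starts differ in part from the GENCODE gene limits given above. By those limits the PHOX2A window lies inside the gene and the HAND1 window overlaps it in part. Capitals mark the GATA core GATAA (or its reverse complement) and the E-box CANNTG, the letters that GATA and helix-loop-helix factors recognise.

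HAND1: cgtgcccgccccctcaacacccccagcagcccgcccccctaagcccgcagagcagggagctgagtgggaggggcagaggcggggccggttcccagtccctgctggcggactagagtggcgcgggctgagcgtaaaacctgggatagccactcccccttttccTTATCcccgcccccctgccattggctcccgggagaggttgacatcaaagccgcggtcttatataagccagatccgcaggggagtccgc
HAND2: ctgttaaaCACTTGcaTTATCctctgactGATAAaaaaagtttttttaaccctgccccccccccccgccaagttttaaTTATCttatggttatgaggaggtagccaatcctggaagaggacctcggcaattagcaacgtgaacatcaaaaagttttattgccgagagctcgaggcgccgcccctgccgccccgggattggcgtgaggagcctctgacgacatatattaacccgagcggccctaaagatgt
PHOX2A: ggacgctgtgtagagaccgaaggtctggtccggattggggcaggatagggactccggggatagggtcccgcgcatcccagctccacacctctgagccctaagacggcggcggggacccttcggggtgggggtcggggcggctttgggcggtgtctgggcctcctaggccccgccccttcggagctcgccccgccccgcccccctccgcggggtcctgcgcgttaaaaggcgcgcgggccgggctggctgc
MYCN: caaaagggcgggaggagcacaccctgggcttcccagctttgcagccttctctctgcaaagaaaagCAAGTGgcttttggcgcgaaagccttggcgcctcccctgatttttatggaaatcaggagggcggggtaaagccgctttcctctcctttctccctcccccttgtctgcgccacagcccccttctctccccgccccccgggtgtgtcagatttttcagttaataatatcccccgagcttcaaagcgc

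The HAND2 window held 3 matches to GATAA on either strand and 1 E-box, HAND1 held 1 GATAA and no E-box, MYCN held 1 E-box and no GATAA, and PHOX2A held neither. Of 35116 RefSeq windows of the same length, 20.4% held GATAA and 61.8% held CANNTG. The MYC-type E-box CACGTG, found in 6.34% of windows and itself a case of CANNTG, was in none of the 4. The homeodomain core TAATTA (4.35% of windows) was in the HAND2 window, and the T-box half-site AGGTGT (9.57%) in that of PHOX2A. Of the other members, ISL1 held 2 GATAA matches and 1 E-box in its window, and 1 of the 2 GATA2 starts held 3 E-boxes. Over the 6 starts of GATA3, 1 window held GATAA and 2 held an E-box. A GATA3 window also held CACGTG, and another held AGGTGT. The table had windows for 7 of the 8 members, all but TBX2. These are matches of letters, not sites of binding.

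TDP-43 binds RNA preferentially at stretches of alternating U and G, so annotated transcripts (GENCODE release 29) of the members were searched for the longest run of alternating T and G. ISL1 had 1 of 37 bases, in exon 1 of the noncoding transcript ISL1-202 at chr5:51386377-51386413 (plus strand). This stretch lies in intron 2 of the 2 protein-coding ISL1 transcripts. It is shown with 20 bases on each side, the run in capitals.

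ISL1: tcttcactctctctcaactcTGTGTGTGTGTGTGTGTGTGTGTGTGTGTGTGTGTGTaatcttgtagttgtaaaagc

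The longest run in the other 7 members was 6 or 7 bases, and the median over 17056 tested genes with an annotated transcript was 7. A run of at least 12 bases was present in 6.51% of those genes. Introns that are part of no annotated transcript were not searched, and gene TPM do not tell the transcripts apart.

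The knockdown changed 7 of the 8 factors, and in both directions. HAND1, HAND2, GATA3 and TBX2 rose, PHOX2A, ISL1 and MYCN fell, and GATA2 was not called. Calls are at an adjusted p under 0.05 (Benjamini-Hochberg over all 17118 genes) in limma, fitted on log2(TPM + 1) with the means of all 4 groups. The same rule called 6.19% of all tested genes higher and 19.8% lower, against 4 and 3 of the 8 members. Over all genes 1059 were higher and 3389 lower. Other scalings moved this balance to 1935 and 2076 (median of ratios), 1932 and 2015 (quantile) and 1417 and 2724 (mitochondrially encoded genes left out), and the 7 members kept their calls and directions in those. Control and knockdown libraries had no overlap in 6 of the 8 members and in 43.6% of tested genes. Except for TBX2 and MYCN, the members were abundant, above 91.5% of tested genes or more in siControl libraries. The mitochondrially encoded share of TPM, a sign of RNA quality, was 12 to 14.3% in siControl and 15.5 to 16.2% in siTDP-43 libraries. The scaling without these genes only rescales the other genes of a library by 1 factor. A part of RNA quality in these changes was not tested.

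HAND1 had the largest rise of the 8 by fold. It was at 107.6, 104.2 and 114.2 TPM in siControl and at 163.2, 162.1 and 171.3 TPM in siTDP-43 libraries. Every knockdown library stood above every control, and the mean was 52.4% higher (108.7 ± 5.04 to 165.6 ± 5.03 TPM, SD, n = 3 each). The log2 change was 0.60 ± 0.04 (SE; limma adjusted p = 3.6e-05).

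HAND2, the most abundant of the 8, rose less by fold than HAND1 but more in TPM (by 101 against 56.89). It was at 676, 697 and 800.6 TPM in siControl and at 800, 825.3 and 851.3 TPM in siTDP-43 libraries. The groups overlapped, because siControl replicate 3 stood slightly above siTDP-43 replicate 1. The log2 change of 0.19 ± 0.06 passed narrowly (limma adjusted p = 0.044) and did not pass in 14 of 23 alternatives. Leaving out any 1 library other than siControl replicate 3 ended the call, genotype libraries included, with log2 values of 0.14 to 0.21. Without siControl replicate 3 the change was 0.27 (adjusted p = 0.0022).

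The GATA factors parted. GATA3 was at 125.1, 121.4 and 117.2 TPM in siControl and at 158.2, 149.4 and 159.3 TPM in siTDP-43 libraries, 28.4% higher with no overlap (log2 0.36 ± 0.04, limma adjusted p = 4.4e-04). GATA2 was at 283.5, 266.6 and 263.2 TPM in siControl and at 279.4, 262.3 and 269.2 TPM in siTDP-43 libraries. Its libraries overlapped, the means were 271.1 and 270.3 TPM, and the 95% interval of the log2 change ran from -0.10 to 0.09, so a change as large as that of GATA3 lay outside the interval.

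TBX2 was at 38.29, 39.94 and 40.56 TPM in siControl and at 44, 45.36 and 50.28 TPM in siTDP-43 libraries. It stood 17.6% higher without overlap (log2 0.23 ± 0.05, limma adjusted p = 0.016).

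PHOX2A led the factors that fell in TPM. It was at 509, 505.4 and 552 TPM in siControl and at 408.1, 395 and 418.1 TPM in siTDP-43 libraries. All knockdown libraries lay below all controls, and the mean fell by 22% (log2 -0.36 ± 0.05, limma adjusted p = 0.0013).

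ISL1 was at 241.4, 244.7 and 252.1 TPM in siControl and at 201.7, 207 and 204.8 TPM in siTDP-43 libraries. It fell by 16.9% with no overlap (log2 -0.27 ± 0.03, limma adjusted p = 7.2e-04). MYCN, the least abundant member, was at 7.96, 7.43 and 8.26 TPM in siControl and at 5.33, 5.27 and 5.42 TPM in siTDP-43 libraries. It fell by 32.3%, again with no overlap (log2 -0.49 ± 0.07, limma adjusted p = 0.0012). At these levels the added 1 shrinks the log2 change of MYCN, which was -0.55 with a pseudocount of 0.1.

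**Figure D1:**
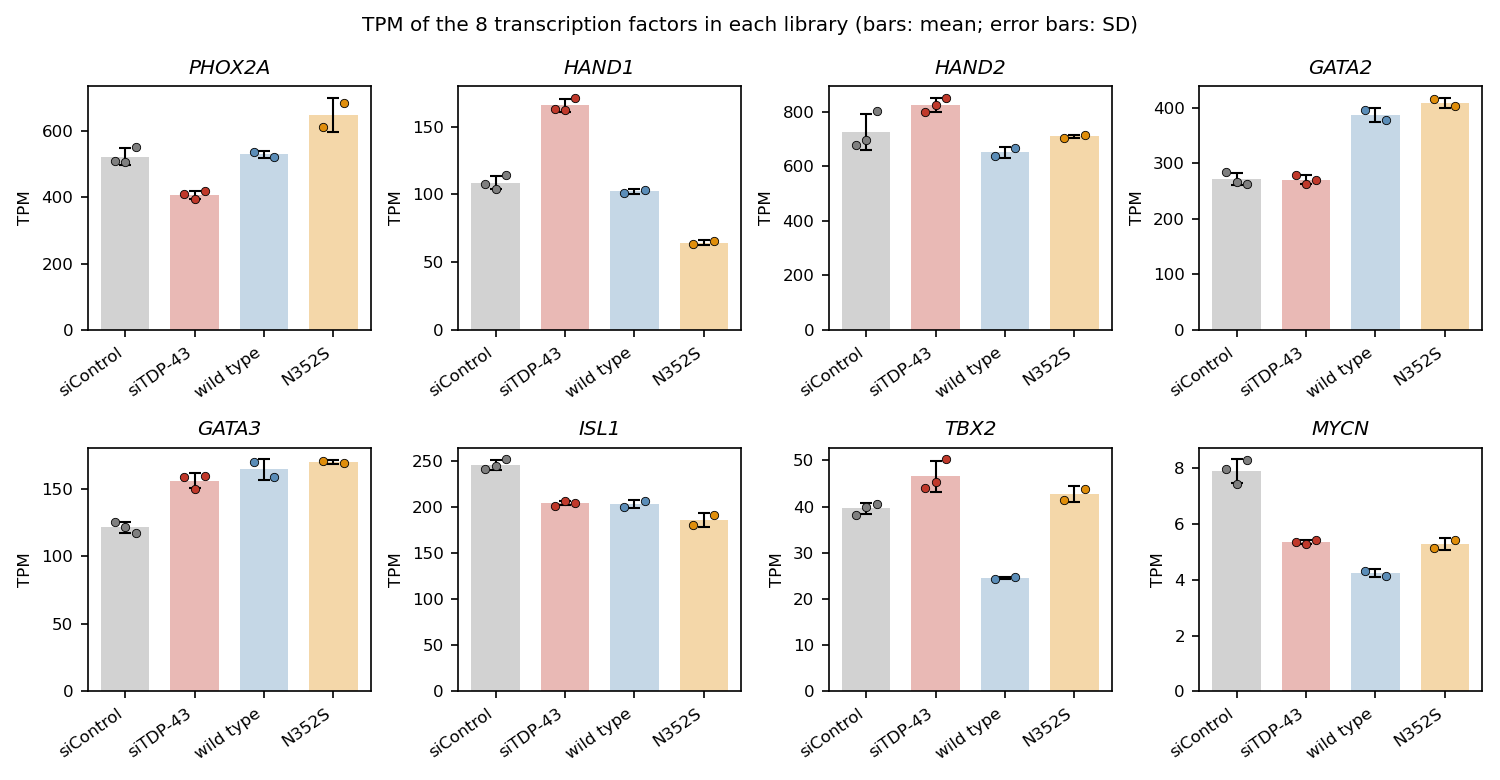
TPM (vertical axis, from 0, a separate scale for each gene) of the 8 factors in the 10 libraries (points), 3 in each siRNA group and 2 in each genotype group. Bars are the mean of each group and error bars its SD. HAND1 stands highest in siTDP-43 (165.6 TPM) and lowest in N352S libraries (64.48 TPM), and PHOX2A the reverse (407 and 648.2 TPM).

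In N352S cells 3 of the 8 factors were called. PHOX2A and TBX2 rose and HAND1 fell, against 8.28% of tested genes higher and 11.9% lower. Wild-type and N352S libraries had no overlap in 7 of 8 members and in 60.1% of tested genes. In the knockdown HAND1 and PHOX2A had moved the other way.

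HAND1 was at 100.9 and 103.4 TPM in wild-type and at 63.19 and 65.77 TPM in N352S libraries. The mean fell by 36.9% (102.2 ± 1.78 to 64.48 ± 1.82 TPM, SD, n = 2 each), with a log2 change of -0.66 ± 0.05 (limma adjusted p = 4.8e-05). PHOX2A was at 535.1 and 521.6 TPM in wild-type and at 611.9 and 684.5 TPM in N352S libraries, 22.7% higher (log2 0.29 ± 0.06, limma adjusted p = 0.011). The N352S libraries differed from each other by more than the wild-type ones did. Without N352S replicate 82 the log2 change was 0.21 and without wild type replicate 80 it was 0.27, and neither was called (adjusted p = 0.071 and 0.065). Fitted on the genotype libraries alone, it was not called either (adjusted p = 0.058).

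TBX2 had the largest change of the 8 by fold in this comparison. It was at 24.32 and 24.71 TPM in wild-type and at 41.52 and 43.87 TPM in N352S libraries, 74.2% higher (log2 0.78 ± 0.07, limma adjusted p = 8.2e-05). TBX2-AS1, an antisense transcript that spans TBX2 on chromosome 17, also rose, from 20.31 and 17.58 TPM to 43.46 and 39.99 TPM (log2 1.10 ± 0.09, limma adjusted p = 6.7e-05). In the knockdown TBX2-AS1 was not called (24.75 and 27.42 TPM, adjusted p = 0.2). Counting by strand is not stated, so reads of TBX2 and TBX2-AS1 may not be separated.

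The other members were not called in N352S cells. MYCN was at 4.32 and 4.12 TPM in wild-type and at 5.11 and 5.42 TPM in N352S libraries (log2 0.26 ± 0.08, limma adjusted p = 0.057), and ISL1 at 200.5 and 206.3 TPM and at 180.3 and 191 TPM (log2 -0.13 ± 0.04, adjusted p = 0.054). Each narrowly missed the threshold and passed it in 4 of 22 alternatives. HAND2 (log2 0.12, 95% interval -0.04 to 0.29), GATA2 (0.08, -0.03 to 0.19) and GATA3 (0.05, -0.07 to 0.16) had intervals that held 0. For GATA3 the interval lay below its knockdown change of 0.36.

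The change itself was compared between the experiments, as the N352S minus wild-type change less the siTDP-43 minus siControl change. It differed in 5 of the 8 factors, more positive in N352S for PHOX2A (0.65 ± 0.08), TBX2 (0.55 ± 0.09) and MYCN (0.75 ± 0.11) and more negative for HAND1 (-1.26 ± 0.07) and GATA3 (-0.31 ± 0.07). The limma adjusted p values were 6.6e-04, 0.0023, 0.0015, 6.3e-06 and 0.0094 in that order. Over all tested genes 13.8% had a more positive and 8.2% a more negative effect at the same threshold (2362 and 1404 genes). Other scalings moved this balance to 2049 and 1867 (median of ratios), 1944 and 2001 (quantile) and 2029 and 1825 (mitochondrially encoded genes left out), and the 5 members kept their calls there. HAND1 and PHOX2A, called in both experiments in opposite directions, shared that pattern with 3.83% of tested genes. TBX2 was called higher in both, as were 0.97% of tested genes. GATA2, HAND2 and ISL1 showed no called difference (95% intervals -0.06 to 0.23, -0.28 to 0.15 and 0.01 to 0.25).

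**Figure D2:**
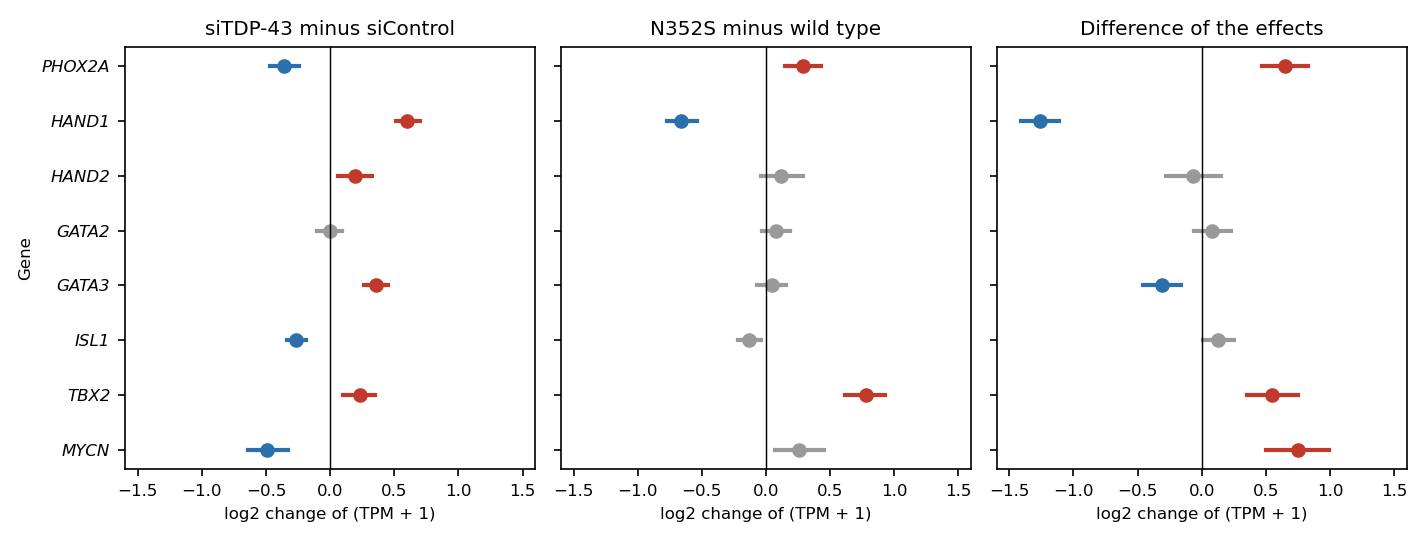
Log2 change of TPM + 1 (horizontal axis; points) with 95% intervals from limma (lines) for each factor (rows) in the knockdown, in N352S cells and as the difference of these effects (N352S minus knockdown). Red marks calls above 0, blue calls below 0 and grey no call. HAND1 is at 0.60, -0.66 and -1.26 and PHOX2A at -0.36, 0.29 and 0.65.

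Ratios between factors in the same library do not change when a library is scaled by 1 factor. The pairs were chosen after the values were seen, so no test is given. HAND1 stood at 0.206 to 0.211 of PHOX2A in siControl libraries and at 0.4 to 0.411 in siTDP-43 libraries. In wild-type libraries it stood at 0.189 and 0.198, close to siControl, and in N352S libraries at 0.0961 and 0.103. The control groups were thus close, and the siTDP-43 and N352S libraries lay on opposite sides of them. The ratio of HAND1 to HAND2 was 0.143 to 0.159 in siControl, 0.196 to 0.204 in siTDP-43, 0.155 and 0.159 in wild-type and 0.0898 and 0.0921 in N352S libraries. The ratio of GATA3 to GATA2 was 0.441 to 0.455 in siControl, 0.566 to 0.592 in siTDP-43, 0.42 and 0.428 in wild-type and 0.411 and 0.419 in N352S libraries. Only the siTDP-43 libraries stood above 0.455 in this ratio. The summed level of the 8 factors varied less, from 1987 to 2148 TPM in siControl, 2052 to 2130 in siTDP-43, 2062 to 2066 in wild-type and 2191 to 2276 in N352S libraries. Both N352S libraries stood above every other library in this sum, to which HAND2 and PHOX2A gave the most.

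**Figure D3:**
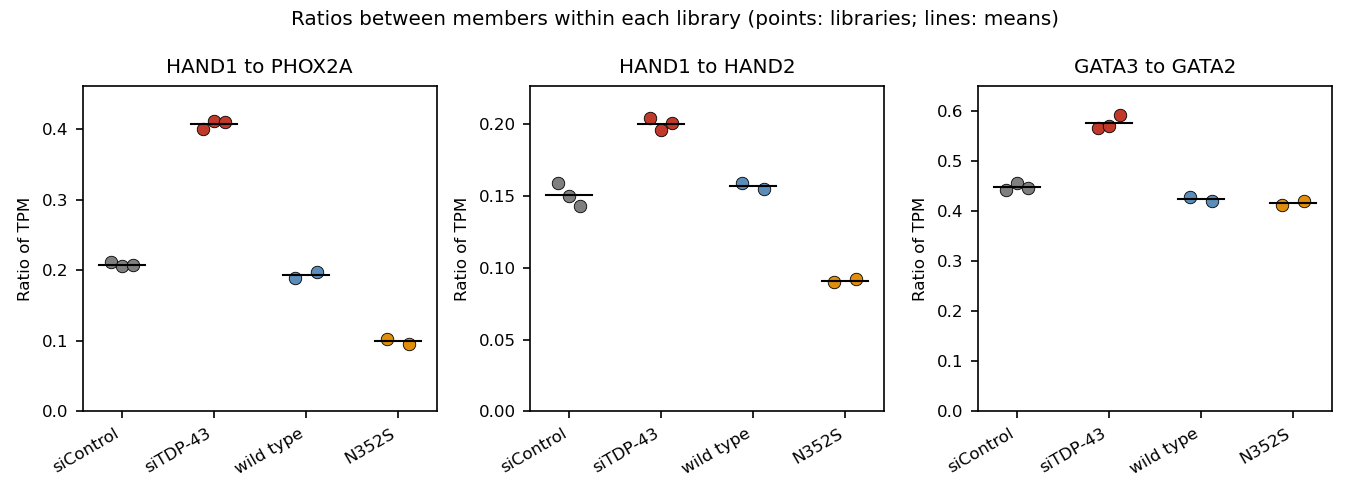
Ratio of TPM between members within each library (vertical axes, from 0; points are libraries, lines are group means) for HAND1 to PHOX2A, HAND1 to HAND2 and GATA3 to GATA2. HAND1 to PHOX2A lies at 0.4 to 0.411 in siTDP-43 and at 0.0961 and 0.103 in N352S libraries, with both control groups between them.

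Across the 4 groups, HAND1 ranged most (2.57-fold from the lowest to the highest group mean), followed by TBX2 (1.9-fold), MYCN (1.87-fold) and PHOX2A (1.59-fold). GATA2, GATA3, ISL1 and HAND2 ranged 1.51-, 1.4-, 1.33- and 1.27-fold. SDs within groups were between 0.738% and 9.2% of the mean. The order of the groups differed from gene to gene. HAND1 rose in the order N352S, wild type, siControl and siTDP-43, with every step larger than the larger SD of its pair. For PHOX2A the order was siTDP-43, siControl, wild type and N352S, and siControl and wild type (522.1 and 528.4 TPM) did not differ beyond their spread. Part of the range came from the controls. GATA2 was 42.8% and GATA3 35.5% higher in wild-type than in siControl libraries, while MYCN, at 4.22 against 7.88 TPM, and TBX2, at 24.52 against 39.6 TPM, were lower. siRNA transfection, editing and experiment cannot be told apart in that contrast. As a result MYCN was at like levels in N352S and siTDP-43 libraries (5.27 and 5.34 TPM), although N352S stood above its control and siTDP-43 below. TBX2 rose in the order wild type, siControl, N352S and siTDP-43 (24.52, 39.6, 42.7 and 46.55 TPM), each step larger than the larger SD of its pair. GATA3 libraries of siTDP-43 and wild type overlapped, although their means (155.6 and 164.2 TPM) differed by more than the larger SD. ISL1 did not differ beyond its spread between wild-type and siTDP-43 libraries (203.4 and 204.5 TPM), nor did HAND2 between N352S and siControl (709 and 724.5 TPM), GATA2 between siTDP-43 and siControl, or GATA3 between wild type and N352S.

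Calls among related genes are read against the shares over all tested genes, 6.19% higher and 19.8% lower in the knockdown (median log2 -0.08) and 8.28% higher and 11.9% lower in N352S cells (median -0.03). Other transcription factors of the noradrenergic state had calls in both directions. Of 17 tested in a list of 18, 3 rose and 6 fell in the knockdown (median log2 -0.11), and 4 rose and 6 fell in N352S cells (median -0.08). PBX3, a homeodomain partner of HOX proteins, fell from 68.42 to 48.66 TPM in the knockdown (log2 -0.48) and rose from 48.76 to 65.21 TPM in N352S cells (0.41), the directions of PHOX2A. KLF13 (48.74 to 34.5 TPM) and KLF7 (66.1 to 50.61 TPM), both zinc finger factors, fell in the knockdown, and KLF7 also in N352S cells (55.52 to 42.76 TPM). DACH1 fell from 22.85 to 14 TPM in N352S cells (-0.67).

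Partners of the 8 factors included inhibitors of DNA binding and LIM-domain proteins that were called in both experiments. Of 15 tested cofactors and dimer partners of 19 listed, 5 rose and 3 fell in the knockdown (median log2 0.10) and 4 rose and 3 fell in N352S cells (0.06). ID1 and ID2, which bind E proteins and keep HAND-type factors from pairing with them, rose in both, ID1 from 52.83 to 94.16 TPM and from 26.49 to 81.94 TPM and ID2 from 85.11 to 135.5 TPM and from 60.12 to 159.5 TPM. The E protein TCF4 fell in the knockdown (298.1 to 206.2 TPM), as did the corepressor TLE3 (31.66 to 20.48 TPM). The other listed E proteins, TCF3 (183.1 to 177.7 TPM in the knockdown) and TCF12 (133.7 to 135.8 TPM), were called in neither experiment. ID3 was not called in the knockdown (56.61 to 64.62 TPM) but rose in N352S cells (49.56 to 88.27 TPM), and ID4 was called in neither. TCF3, TCF12, ID3 and ID4 are named here after their values were seen. LMO3, a LIM-only protein, fell in the knockdown from 6.56 to 4.97 TPM (log2 -0.34). In N352S cells LMO3 rose from 3.34 and 4.20 TPM to 13.76 and 14.27 TPM (log2 1.66). LMO4, also LIM-only and named here after its values were seen, rose in the knockdown from 2.19 to 6.83 TPM (1.30) and fell in N352S cells from 4.08 to 0.37 TPM (-1.92).

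Of 4 tested antisense and divergent neighbours of the 8 genes (6 of the 9 listed were in the table), limma called 0 in the knockdown and 1, TBX2-AS1, in N352S cells. At an unadjusted p under 0.05, limma gave 1 lower in the knockdown and 2 higher in N352S cells. Of all 17118 tested genes, that threshold gave 1716 higher and 4827 lower in the knockdown. The N352S counts were 2367 higher and 3369 lower. HAND2-AS1, which overlaps HAND2 on the opposite strand and is named here after its values were seen, was called in neither experiment, with means of 347.1 TPM in siControl and 339.2 TPM in siTDP-43 libraries, and of 272 TPM in wild-type and 292.8 TPM in N352S libraries. Of 6 tested relatives of the same gene families, 3 fell in the knockdown and 0 rose by limma, where 19.8% of all tested genes fell and 6.19% rose. By the unadjusted threshold 4 fell and 0 rose, to be read against the unadjusted counts over all genes given above. In N352S cells 2 rose and 1 fell, where 8.28% of all tested genes rose and 11.9% fell. MYCL fell in the knockdown (1.99 to 1.33 TPM) and TBX3 rose in N352S cells (37.18 to 48.77 TPM). The relatives included GATA4, which fell from 42.95 to 34.96 TPM in the knockdown and rose from 30.64 to 40.02 TPM in N352S cells.

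MYC, at 35.8 TPM in siControl libraries, was the more abundant relative of MYCN and fell in both experiments, to 26.97 TPM in the knockdown (log2 -0.40) and from 57.2 to 38.58 TPM in N352S cells (-0.56). Of 13 genes of the MYC and MAX network, 2 rose and 5 fell in the knockdown (median -0.09) and 2 rose and 4 fell in N352S cells (-0.03). They included MXI1 (62.33 to 47.01 TPM) and MLXIP (18.33 to 13.62 TPM) in the knockdown and MGA (23.24 to 17.55 TPM) and MLXIP (23.02 to 17.2 TPM) in N352S cells, all of which fell. Of 18 target genes of MYC proteins, 2 rose and 3 fell in the knockdown (median -0.02), and 0 rose and 9 fell in N352S cells by limma (0 and 14 at an unadjusted p under 0.05; median -0.24). By adjusted p, 6.19% of all tested genes rose and 19.8% fell in the knockdown. The N352S shares were 8.28% and 11.9%, with a median of -0.03. At an unadjusted p under 0.05, limma gave 2367 of all 17118 tested genes higher and 3369 lower in N352S cells. In the knockdown the nucleolar protein NCL fell (912.3 to 758.6 TPM), while FBL (283.5 to 316.5 TPM) and CAD (29.54 to 34.72 TPM) rose. In N352S cells the smallest adjusted p was that of SRM, which makes spermidine, from 127.4 and 122.1 TPM to 37 and 44.77 TPM (log2 -1.59). SRM lies at 11054584 to 11060024 on chromosome 1, beside TARDBP, whose own TPM fell in N352S cells. Copy number there was not tested. The ribosome assembly factor NOP56 fell from 238.4 to 188.2 TPM and the kinase CDK4 from 303.6 to 266.4 TPM.

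Of 18 genes for noradrenergic function, 5 rose, 4 fell and 9 were not called in the knockdown (median log2 0.05), where 6.19% of all tested genes rose and 19.8% fell. In N352S cells 5 rose, 7 fell and 6 were not called (median -0.18), where 8.28% of all tested genes rose and 11.9% fell. In the knockdown the membrane ligand DLK1 rose from 2046 to 3134 TPM and the granule protein CHGA from 1646 to 2337 TPM, while the receptor RET fell from 207 to 158.1 TPM. In N352S cells DDC, which makes dopamine, fell from 258.3 to 159.8 TPM and the electron carrier CYB561 from 668.4 to 522.2 TPM, while SLC6A2, the noradrenaline transporter, rose from 158.2 to 304.6 TPM. DLK1 and CHGA moved in the directions of HAND1 in both experiments, each falling in N352S cells (to 1905 and 874.8 TPM), and RET in those of PHOX2A (423 to 550.3 TPM). DBH fell in N352S cells (1651 to 1488 TPM, log2 -0.15, limma adjusted p = 0.03) and was not called in the knockdown.

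Factors of the mesenchymal state were mostly low, with TWIST1 an exception. Of 25 listed 15 passed the filter, as did 17118 of all 58174 genes. PRRX1, which defines that state, was at a mean of 0, 0.00, 0.22 and 0.09 TPM in the 4 groups. In the knockdown 3 rose and 4 fell (median log2 -0.24), beside 6.19% and 19.8% of all tested genes, with SOX9 higher (2.08 to 5.78 TPM) and NOTCH2 (15.66 to 10.03 TPM) and AEBP1 (29.06 to 21.8 TPM) lower. In N352S cells 4 rose and 3 fell (median 0.17), beside 8.28% and 11.9% of all tested genes, with the helix-loop-helix factor TWIST1 higher (137.3 to 212.6 TPM) and TBX18 (3.57 to 0.60 TPM) and YAP1 (1.58 to 0.58 TPM) lower. TWIST1 also rose in the knockdown (148.3 to 195.3 TPM).

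**Figure D4:**
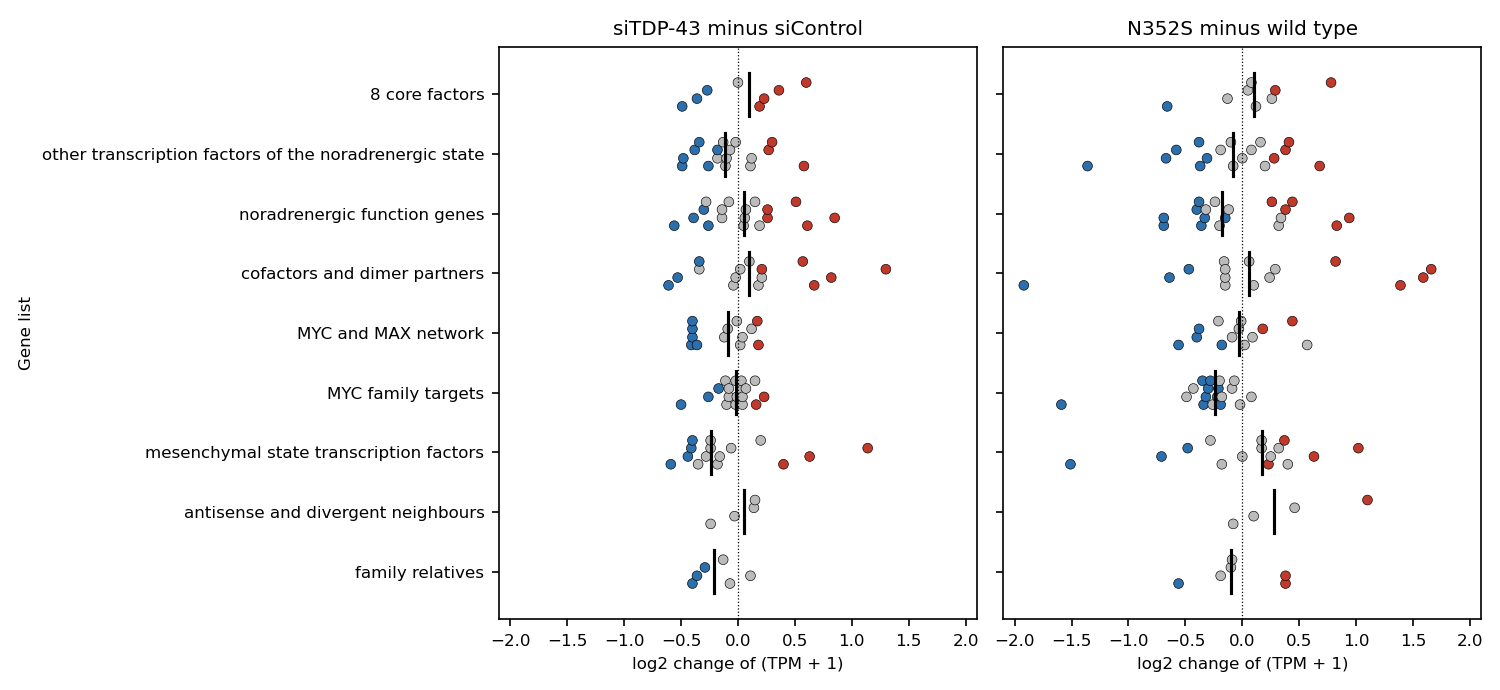
Log2 change of TPM + 1 (horizontal axis) of each tested gene (points) of the 8 core factors and 8 related gene lists (rows). The left panel is the knockdown and the right panel N352S cells. Red points were called higher, blue lower and grey not called, and vertical bars are list medians. The 8 core factors have 4 red and 3 blue points on the left and 2 red and 1 blue on the right.

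Protein-coding genes whose log2(TPM + 1) followed each factor most closely over the 10 libraries were ranked by Pearson r. These r describe 10 libraries that fall into 4 groups, so they follow the group means. CDR2L (r = 0.987) and KAZALD1 (0.977) were nearest to PHOX2A, and MYO10 (0.990) and SLC8A1 (0.989) to HAND1. HRASLS (0.983) and CREBL2 (0.978) were nearest to HAND2, and IGLON5 (0.992) and HR (0.991) to GATA2. GRID1 (0.977) and TRPC4AP (0.973) followed GATA3, and ZFR and CHML (0.985 each) followed ISL1. GAL (0.969) and SHD (0.962) followed TBX2, and PSRC1 (0.991) and PTER (0.983) followed MYCN. Within groups, as deviations from the group means, r ranged from -0.02 for GAL with TBX2 to 0.97 for HRASLS with HAND2. It was 0.93 for CREBL2 with HAND2 and 0.81 for CDR2L with PHOX2A. For the genes nearest to HAND1 it was 0.51 and 0.55, and for TRPC4AP with GATA3 0.23. Of the controls, siControl replicate 3 was highest for HAND2, CREBL2 and HRASLS (2.77, 2.79 and 4.21 TPM). The part of that library in the HAND2 values was not tested.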

How the data were processed

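Per the labels' protocols, RNA was purified with Trizol and sequenced from Illumina TruSeq RNA libraries. The authors deposited gene TPM to 2 decimals, 1 column per library. The submitters' processing notes name STAR, RSEM and hg38. Tool versions, the annotation used and strand settings were not given in the sources used here. TPM sum to a fixed total and keep no depth, so no counting interval can be given.

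Values of genes averaging 1 TPM or more were analysed as log2(TPM + 1), a scale that understates the change of low genes. Means of the 4 groups were fitted together across all genes in R 4.3.3 by limma 3.58.1, with an intensity trend in the prior variance and 6 residual degrees of freedom, which assumes that genotype libraries vary like siRNA libraries. The fit was tested on simulated data, where it missed many 1.5-fold changes, more of them with 2 libraries a group. In the simulated N352S comparison, calls of unchanged genes also ran above the nominal share. Adjusted p under 0.05 was called. Values after ± are SDs over libraries for TPM and SEs for log2 changes.

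The members, lists, motifs, ratios, search for TG runs and sequences shown were chosen with earlier results of these data known. Named genes are the members, TARDBP, up to 3 called genes per list and comparison with the smallest adjusted p, the 2 genes most like each member, and markers. HAND2-AS1, LMO4, TCF3, TCF12, ID3 and ID4 were added after their values were seen. A gene that this rule names is not reported here. Positions and types came from GENCODE release 29 (99.4% of identifiers). Deviations from group means correlated at r = 0.34, 0.14 and 0.20 in same-numbered siRNA libraries and at -0.27 to 0.09 in other pairs. Positive values in some pairs force negative ones in others, so these r do not establish a pairing. The numbers were also fitted as a block. Wild-type and N352S libraries share no number and were not paired. Further alternatives were pseudocounts, filters, scalings, eBayes settings, thresholds, separate fits and leaving out each library. Figures used matplotlib 3.10.9.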

Additional observations from a re-analysis of the deposited data

Results flagged for a closer look

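The effect on 5 of the 8 factors differed between the experiments by a test of the difference itself in limma. The difference (N352S minus knockdown, log2) was -1.26 for HAND1 and -0.31 for GATA3, and 0.65 for PHOX2A, 0.55 for TBX2 and 0.75 for MYCN. No group had the 4 libraries that a test for an outlying library needs.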

How the results depend on the processing

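In the knockdown the replicate block changed no call of a member (4 higher and 3 lower; HAND1 log2 0.60, adjusted p = 0.0042). Adjusted p under 0.01 left 2 members higher, and a minimum of 1.5-fold left 1 higher and 0 lower, since only HAND1 changed that much. In N352S cells the count higher was 4 under quantile normalization and 1 with the genotype libraries alone, with adjusted p under 0.01 and with the 1.5-fold minimum. The count lower there was 2 under quantile normalization and without mitochondrially encoded genes. Leaving out 1 library gave 1 to 2 higher and 1 to 2 lower, with 1 higher without wild type replicate 80 or N352S replicate 82, and 2 lower without siControl replicate 3 or N352S replicate 82; a lone library is then assumed to vary like the other groups. Of the differences of effects below 0, 1 of 2 reached 1.5-fold. The uncalled change of GATA2 in the knockdown changed sign, at 0.08 with median-of-ratios scaling, 0.08 with quantile normalization, 0.04 without mitochondrially encoded genes and -0.03 to 0.03 without 1 library, as did its difference of effects (-0.03 under quantile normalization). The other 7 members kept their direction in every alternative run. HAND2 in the knockdown lost its call in 14 of 23 and PHOX2A in N352S cells in 5 of 22.

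Over all genes, counts higher and lower in the knockdown were 1935 and 2076 with median-of-ratios scaling, 1932 and 2015 with quantile normalization, 490 and 1859 at adjusted p under 0.01 and 182 and 475 at 1.5-fold, and 669 were higher without siTDP-43 replicate 3. In N352S cells they were 749 and 969, 506 and 544, 901 and 990 with the genotype libraries alone, and 813 and 1019 without wild type replicate 79, against 1417 and 2033; 918 were higher without N352S replicate 81, and 1239 and 1242 were lower without wild type replicate 80 and N352S replicate 82. Differences of effects numbered 1251 and 674, 1159 and 629, and 882 were below 0 without wild type replicate 79, against 2362 and 1404. Depth is unknown, so the counting error of low genes such as MYCN, at 4.12 to 8.26 TPM, cannot be given.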
